A study of Mus musculus with 2 samples.

Results

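The 40 genes described here mark the cells of brain blood vessels. They comprise 26 genes of endothelium and its barrier and 14 genes of the surrounding mural cells, of which 5 encode contractile proteins. All were taken by gene symbol from a fixed list, with no measured value in the rule, and all 40 were found among the 55536 annotated genes of the gene table. The data are total RNA-seq of hippocampal tissue from 2 adult female mice, with 1 library for each animal. Both animals were B6CASTF1/J, the hybrid offspring of C57BL/6J and CAST/EiJ parents, 8-10 months old and with no treatment, transgene or mutation named in the labels. They are called replicate 1 and replicate 2 and form 1 group, so the data give levels and the spread between animals, and no condition was compared. The labels call the tissue a layer of the hippocampus without naming the layer, and they give both samples the same donor entry but different animal numbers, which were read as separate animals. Depth was 34147402 expected counts on annotated genes in replicate 1 and 28356913 in replicate 2.

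Brain capillaries are lined by endothelial cells joined by tight junctions, which close the space between the cells, and equipped with transporters that carry nutrients inward and pump foreign compounds back to the blood. Pericytes lie on the capillary wall within the same basement membrane, and arterioles are wrapped in smooth muscle cells that set their width. Signals between these cells include vascular endothelial growth factor (VEGF) acting on Flt1 and Kdr, angiopoietins acting on Tek, platelet-derived growth factor B from endothelium acting on Pdgfrb of mural cells, and Notch ligands acting on Notch3.

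Levels are given as TPM, the deposited transcript abundance scaled for transcript length and library depth, in each animal and as mean ± SD with n = 2. A gene counted as detected where both animals had a TPM of 1 or more, which held for 38 of the 40 genes. The same threshold was met by 59.1% of all nuclear protein-coding genes. The general endothelial markers Pecam1, Cdh5 and Cldn5 and the mural markers Rgs5 and Pdgfrb were among the detected genes. The 2 genes below the threshold were the mural channel gene Kcnj8 and the intermediate filament gene Des. The mean TPM was 10 or more for 16 genes and between 1 and 10 for 22. The 26 endothelial and barrier genes summed to 639 TPM in replicate 1 and 662 in replicate 2, or 0.128% and 0.133% of the TPM of nuclear protein-coding genes. The 14 mural genes summed to 105.41 TPM in replicate 1 and 105 in replicate 2. These are sums over bulk tissue, in which fewer cells of a type and less RNA per cell cannot be told apart.

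**Figure D1:**
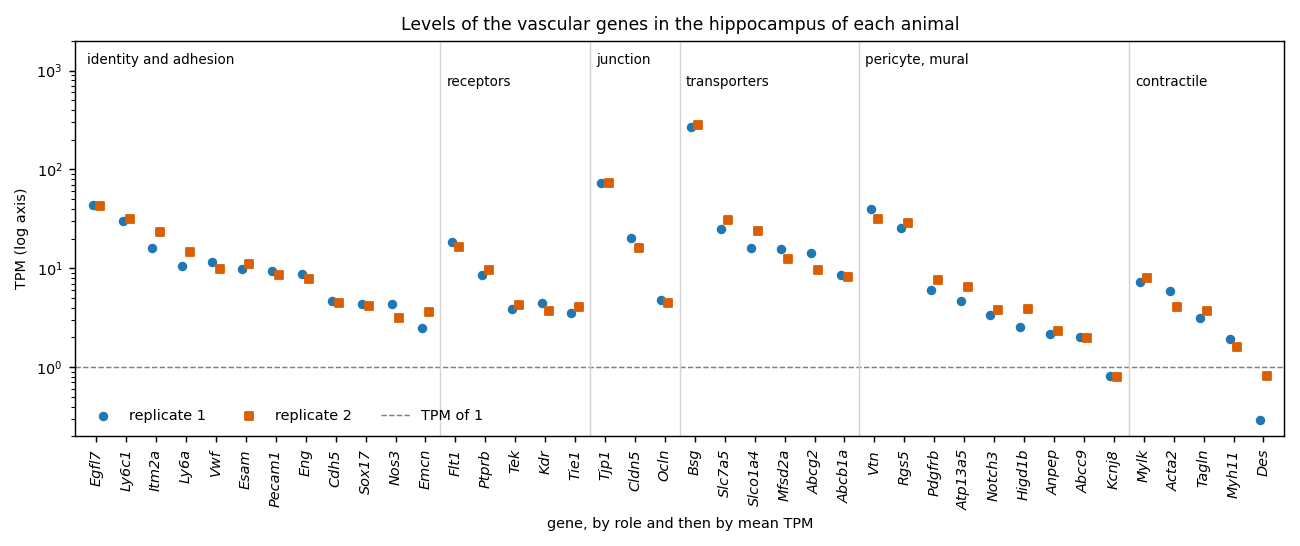
TPM (log axis) of each of the 40 genes in replicate 1 (circles) and replicate 2 (squares), grouped by role and ordered by mean TPM, with a dashed line at a TPM of 1. Bsg stands highest at 274 TPM on average, and Kcnj8 and Des are the genes with both animals below the line.

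A few genes carried most of each sum. Bsg alone held 41.7% of the endothelial sum in replicate 1 and 42.4% in replicate 2. Bsg, Tjp1 and Slc7a5, which are also expressed by many cell types outside vessels, held 56.9% and 58.0% together. Without these 3 genes the endothelial sum was 275 TPM in replicate 1 and 278 in replicate 2. On the mural side, Rgs5 and Vtn held 61.9% of the sum in replicate 1 and 57.2% in replicate 2. With the genes placed in order of mean TPM, 12 of the 39 neighbouring pairs differed by more than the SD of both genes and in the same direction in both animals, and 27 pairs did not. The order of the top 4 genes, Bsg above Tjp1 above Egfl7 above Vtn, was resolved by that criterion. From Mylk down to Cdh5 and from Sox17 down to Emcn, no gene was resolved from its neighbour.

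Differences between the animals are given as the log2 ratio of replicate 2 over replicate 1, from expected counts scaled between the libraries, with an exact 95% interval that covers counting error only. No gene of the list differed at least 2-fold, among the 37 with a mean count of at least 50, against 1.1% of 14434 annotated genes with that count. None differed at least 1.5-fold either, against 5.22% of all genes tested, with Emcn just under that line at 1.497-fold and past it under total-count scaling or a prior count of 0.5. When the libraries were instead scaled to the spike-ins, synthetic RNAs added to each sample, Nos3, Acta2 and Myh11 passed 1.5-fold, each lower in replicate 2, against 9.81% of all genes. With 1 library per animal no test between animals was possible, so there are no p-values and no count at an unadjusted p. The counting interval lay above a ratio of 1 for 9 of the 37 genes and below it for 11, against 18.7% and 25.6% of all genes tested. Under spike-in scaling the split became 2 above and 20 below, but the matching shares of all genes were not counted. That scaling moved the median log2 ratio of all genes tested from -0.02 to -0.26, so each direction below holds relative to the bulk of the transcriptome.

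**Figure D2:**
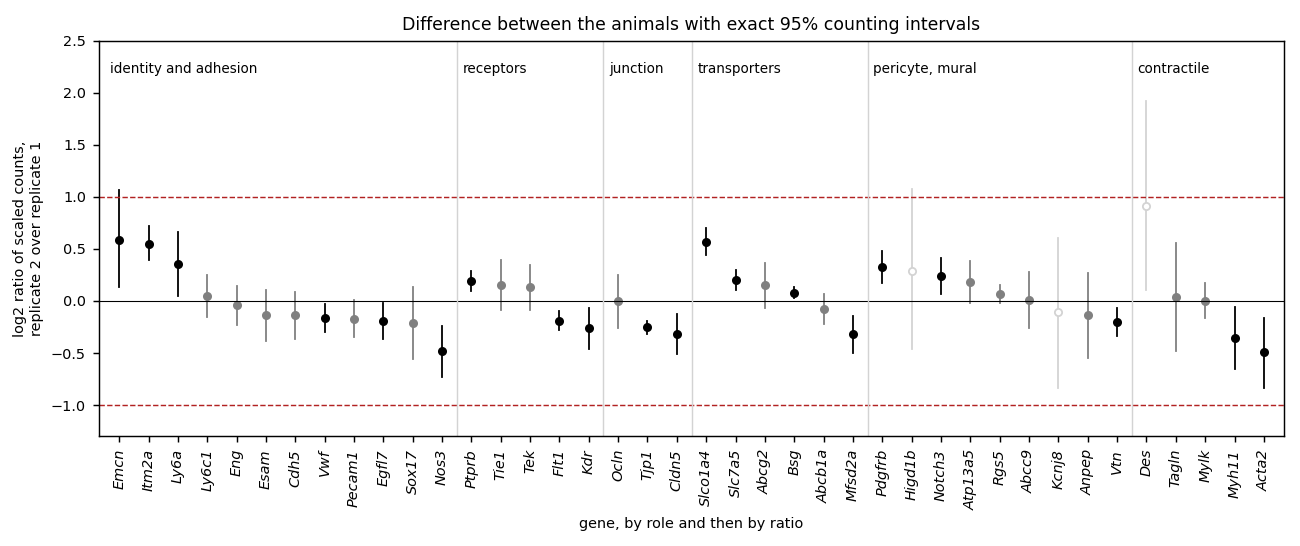
Log2 ratio of scaled counts, replicate 2 over replicate 1, for each of the 40 genes by role, with exact 95% counting intervals as vertical lines. Black marks intervals that exclude a ratio of 1, grey those that do not, and open light symbols the 3 genes with a mean count under 50. All points lie between the dashed lines at a 2-fold difference.

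The size of the differences was close to that of other genes of similar count. The median absolute log2 ratio was 0.19 over the 37 genes and 0.14 over all genes tested. Among genes with a mean count between 50 and 1000 the medians were 0.18 over 31 members and 0.17 over 8794 genes. In sign, 18 members were higher in replicate 2 and 19 were lower. The median log2 ratio was -0.06 over the 26 endothelial and barrier genes, 0.01 over the 11 mural genes tested and -0.02 over all genes.

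The endothelial identity and adhesion genes number 12, and all were detected. Egfl7, which encodes a secreted protein of endothelial cells and hosts a vessel microRNA, led them with 43.9 TPM in replicate 1 and 42.7 in replicate 2. Ly6c1, a surface protein of mouse brain capillaries, followed with 30.4 and 31.7 TPM, and Egfl7 was the higher of the pair in both animals by 1.45 and 1.35 times. Ly6a, the related stem cell antigen also found on brain endothelium, was at 10.6 and 14.7 TPM. Ly6 genes lie in a family of close copies, and the posterior SD of read assignment for Ly6c1 was 3.03 and 2.35 counts of 444 and 383. Across the list this SD was 0 in both libraries for 34 of the 40 genes.

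The junctional adhesion genes were lower and similar in both animals. Pecam1, the adhesion molecule used as a general endothelial marker, was at 9.48 TPM in replicate 1 and 8.59 in replicate 2. Cdh5, the cadherin of endothelial adherens junctions, was at 4.70 and 4.45 TPM, and Esam, an immunoglobulin-type adhesion molecule, at 9.86 and 11.0 TPM. In the gene table Pecam1 was 2.02 and 1.93 times as high as Cdh5. The second transcript table gave ratios of 1.11 and 0.96 instead. There Cdh5-202, a fragment of 346 bases, was given 47.1% and 51.6% of the Cdh5 TPM, against 0% and 4.27% in the first transcript table, so that comparison of levels depends on the table.

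Eng, a co-receptor of the TGF-beta family, was at 8.82 TPM in replicate 1 and 7.85 in replicate 2. Vwf, the clotting glycoprotein stored in endothelial granules, was at 11.7 and 9.73 TPM. Sox17, a transcription factor of arterial endothelium, was at 4.31 and 4.13 TPM. The counting interval of the ratio excluded 1 only for Vwf among these 3 genes, with a log2 ratio of -0.16 (interval -0.29 to -0.03).

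Further directions stood out among the identity genes, in opposite senses. Itm2a, a membrane protein enriched in brain endothelium, had 551 counts in replicate 1 and 676 in replicate 2, or 15.9 and 23.3 TPM. Its log2 ratio was 0.55 (0.39 to 0.72). Emcn, the sialomucin of capillary and venous endothelium, had 72 and 91 counts with a log2 ratio of 0.58 (0.13 to 1.06). Nos3, the endothelial nitric oxide synthase, went the other way with 370 and 221 counts, 4.35 and 3.11 TPM and a log2 ratio of -0.48 (-0.73 to -0.24). Ly6a was also higher in replicate 2, at 0.35 (0.05 to 0.66), and Egfl7 was lower at -0.19 (-0.36 to -0.02). Under spike-in scaling the log2 ratios were 0.31 for Itm2a, 0.34 for Emcn, 0.11 for Ly6a, -0.72 for Nos3 and -0.43 for Egfl7. None of these signs turned, but only Itm2a and Slco1a4 of the whole list then had intervals above 1. Emcn and Ly6a were thus no longer resolved from a ratio of 1 under that scaling. The ratios of Pecam1, Cdh5, Esam, Eng, Ly6c1 and Sox17 were not distinguishable from 1 at this depth, and the median over the 12 genes was -0.14.

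The receptor group holds 4 tyrosine kinases and the phosphatase Ptprb, all detected. Flt1, VEGF receptor 1, binds VEGF tightly and signals weakly. It was the most abundant of the 5, with 18.6 TPM in replicate 1 and 16.4 in replicate 2. Kdr, VEGF receptor 2, which transmits most of the growth signal, was at 4.41 and 3.72 TPM. Flt1 thus exceeded Kdr by 4.21 and 4.42 times in the gene table and by 4.46 and 4.54 times in the second transcript table.

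The angiopoietin receptor Tek was at 3.91 TPM in replicate 1 and 4.29 in replicate 2, and its orphan partner Tie1 at 3.56 and 4.05 TPM. Ptprb, the endothelial phosphatase that dampens Tek, was at 8.57 and 9.57 TPM. Tek and Tie1 were not resolved from each other, nor was Kdr from Tek, while Ptprb lay above all 3 in both animals. Both VEGF receptors were lower in replicate 2, with log2 ratios of -0.19 (-0.28 to -0.10) for Flt1 and -0.26 (-0.46 to -0.07) for Kdr. Ptprb was higher at 0.19 (0.10 to 0.29), and the intervals of Tek and Tie1 included 1. Under spike-in scaling the log2 ratio of Ptprb turned to -0.05.

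Flt1 lies on chromosome 5 (147561604 to 147726011, minus strand, mm10) and has a membrane-bound and a soluble form. Flt1-202 has 30 exons and encodes 1333 residues. Flt1-203 has 13 exons and encodes 688 residues, ending in a tail read from the start of an intron that Flt1-202 removes. The tail is shown because it is the coding stretch that sets the soluble form apart, a soluble decoy that binds VEGF without a kinase domain. The coding sequence is given 5′ to 3′ from GENCODE M21 on GRCm38, with the shared coding bases in lower case and the tail (chr5:147639133-147639224, minus strand) in capitals, and a TAA stop follows it.
Flt1-203: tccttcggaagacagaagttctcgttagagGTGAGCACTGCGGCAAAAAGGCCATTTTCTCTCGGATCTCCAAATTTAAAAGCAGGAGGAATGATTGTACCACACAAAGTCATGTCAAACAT

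Of the TPM of this pair, Flt1-203 held 37.6% in replicate 1 and 34.0% in replicate 2. In the second transcript table it held 38.2% and 33.6%, within 1 percentage point of the first. Flt1-203 was assigned 789 counts in replicate 1 and 520 in replicate 2, and Flt1-202 had 1442 and 1111. The last exon of Flt1-203 runs 4066 bases past the stretch shared with Flt1-202, into the intron, so counts of the soluble form and of unspliced Flt1 RNA cannot be told apart in total RNA. Ptprb also had a second form above 10% in both animals and both tables. Ptprb-203, whose coding sequence is 861 bases longer than that of Ptprb-201, held 27.9% and 22.6% of that pair in the first table.

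The 3 tight junction genes were detected, none was higher in replicate 2 by scaled counts, and 2 had intervals below a ratio of 1. Cldn5, the main claudin of brain endothelium (chromosome 16, 18776847 to 18778262), had 560 counts in replicate 1 and 376 in replicate 2, or 20.2 and 16.2 TPM, and a log2 ratio of -0.31 (-0.51 to -0.12). Ocln, a membrane protein of the same junctions, was at 4.83 and 4.44 TPM with a log2 ratio of 0.00 (-0.26 to 0.25). Cldn5 exceeded Ocln by 4.18 and 3.65 times.

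Tjp1, the scaffold protein ZO-1 that many cell types use, was at 72.1 TPM in replicate 1 and 72.4 in replicate 2. Its counts were 5243 and 3679, a log2 ratio of -0.25 (-0.31 to -0.19) after scaling. TPM divides counts by an effective length, the number of positions a read could start from, and for Tjp1 this was deposited as 3449 bases in replicate 1 and 2886 bases in replicate 2. It averages over the transcripts of the gene, short annotated fragments included. Tjp1-205, of 551 bases, held 23.6% and 25.7% of the TPM from 162 and 148 counts. The long forms took most reads, with 2043 and 1363 counts on Tjp1-201 and 2710 and 1832 on Tjp1-202.

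Tjp1-202 contains an exon of 240 bases, or 80 codons, that Tjp1-201 lacks, known as the alpha domain of ZO-1. The exon is shown in capitals because it is the named alternative exon of ZO-1 (chr7:65314093-65314332, minus strand, GRCm38), and the lower case bases are the flanking coding exons. The long forms also differ elsewhere, since the coding sequence of Tjp1-202 is longer by 180 bases and not by the full exon.
Tjp1-202: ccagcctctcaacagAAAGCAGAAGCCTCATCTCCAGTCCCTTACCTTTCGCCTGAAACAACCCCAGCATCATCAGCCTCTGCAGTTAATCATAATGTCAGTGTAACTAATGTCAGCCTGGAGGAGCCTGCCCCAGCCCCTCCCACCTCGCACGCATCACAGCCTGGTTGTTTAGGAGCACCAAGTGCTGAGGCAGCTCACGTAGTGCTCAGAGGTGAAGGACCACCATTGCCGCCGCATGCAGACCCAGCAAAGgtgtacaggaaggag

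The form with the exon, Tjp1-202, held 53.4% of the pair in replicate 1 and 53.7% in replicate 2 by the first transcript table, but 40.4% and 34.6% by the second. Both forms were present in both animals, and which of them led depended on the table.

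The 6 barrier transporter genes were all detected, with 3 intervals above a ratio of 1 and 1 below. Bsg, which encodes basigin, the chaperone of the monocarboxylate transporters, was the highest gene of the whole list with 266 TPM in replicate 1 and 281 in replicate 2. Slc7a5, the light chain of the large neutral amino acid transporter, was at 25.2 and 31.0 TPM. Slco1a4, an organic anion transporter, was at 15.99 and 23.8 TPM. All 3 were higher in replicate 2 by TPM and by scaled counts, although Bsg and Slc7a5 turned under spike-in scaling.

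Slco1a4 (chromosome 6, 141805440 to 141856199) showed the largest difference among the transporters. It had 841 counts in replicate 1 and 1045 in replicate 2, and its log2 ratio of 0.57 (0.44 to 0.70) remained positive at 0.33 under spike-in scaling. The ratios of Slc7a5, 0.20 (0.11 to 0.30), and Bsg, 0.08 (0.03 to 0.13), were small and turned to -0.04 and -0.16 under spike-in scaling. Mfsd2a, the lipid transporter that limits vesicle traffic across the barrier, was lower in replicate 2, with 636 and 425 counts, 15.6 and 12.5 TPM and a log2 ratio of -0.32 (-0.50 to -0.14). Slco1a4 and Mfsd2a thus lay within 1.03 times of each other in replicate 1, while Slco1a4 was 1.91 times as high in replicate 2. In the second transcript table Slco1a4 was 0.67 and 1.27 times the level of Mfsd2a, so the order in replicate 1 depends on the table.

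The efflux pumps did not differ detectably between the animals in counts. Abcb1a, the P-glycoprotein of brain capillaries, was at 8.55 TPM in replicate 1 and 8.18 in replicate 2. Its related neighbour Abcb1b was lower, with Abcb1a 3.39 and 4.45 times as high. The deposited uncertainty of read assignment for Abcb1a was a posterior SD of 4.03 and 3.67 counts, so the assignment of few of its reads was uncertain. Abcg2, the second efflux pump, had 372 and 345 counts and a log2 ratio of 0.15 (-0.07 to 0.37), but 14.3 and 9.68 TPM. Its effective length was 1230 bases in replicate 1 and 2024 bases in replicate 2. In replicate 1 the short transcripts Abcg2-207, Abcg2-208 and Abcg2-210 took 12.5%, 17.5% and 19.9% of its TPM, and in replicate 2 they took 0%, 0% and 5.79%.

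Basigin has a long form with an additional immunoglobulin domain, known from photoreceptors, and a short form found elsewhere. The additional exon of Bsg-201 has 348 bases, or 116 codons (chr10:79708697-79709044, plus strand, GRCm38). Bsg-201 held 2.63% of the pair with Bsg-205 in replicate 1 and 2.14% in replicate 2 in the first transcript table, and 10.5% and 9.84% in the second. Bsg-205 led in both tables and both animals, at 79.1% or more of the gene's TPM. A further transcript, Bsg-202, held 17.9% and 6.67% in the first table and was near 0 in the second.

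The pericyte and shared mural genes number 9, of which 8 were detected and 7 had counts large enough for a ratio. Vtn, which encodes the matrix protein vitronectin made by pericytes, was at 39.5 TPM in replicate 1 and 31.2 in replicate 2. Rgs5, a G-protein regulator of mural cells, was at 25.7 and 28.9 TPM. Vtn was above Rgs5 in both animals, by 1.54 and 1.08 times. These 2 genes stood well above the rest of the mural set.

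Pdgfrb, the receptor that recruits pericytes, was at 6.0 TPM in replicate 1 and 7.53 in replicate 2. Atp13a5, a P-type ATPase of brain pericytes, was at 4.68 and 6.52 TPM, and Notch3, the Notch receptor of mural cells, at 3.40 and 3.81 TPM. Pdgfrb was higher in replicate 2 with 671 and 704 counts and a log2 ratio of 0.33 (0.17 to 0.48), and Notch3 likewise at 0.24 (0.06 to 0.42). Vtn was lower at -0.20 (-0.33 to -0.07). Under spike-in scaling Pdgfrb stayed positive at 0.08 but its interval included 1, Notch3 was at 0.00 and Vtn at -0.44. The mural markers thus did not share a direction, and their median log2 ratio was 0.07 over the 7 genes.

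The remaining mural genes were low. Higd1b, a small mitochondrial protein gene used as a pericyte marker, was at 2.57 TPM in replicate 1 and 3.91 in replicate 2 from 30 and 31 counts. Anpep, aminopeptidase N of pericytes, was at 2.16 and 2.34 TPM. The subunits of the vascular ATP-sensitive potassium channel were both scarce. Abcc9, its sulfonylurea receptor, was at 2.04 and 1.95 TPM, and Kcnj8, its pore, at 0.82 and 0.79 TPM from 40 and 31 counts. Abcc9 was 2.49 and 2.47 times as high as Kcnj8, a nearly equal ratio in both animals.

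Abcc9 (chromosome 6, 142587862 to 142702315, minus strand) has alternative last coding exons that give the receptor different carboxyl ends, compared here over the last 42 residues. The form known as SUR2B is that of vascular smooth muscle and SUR2A that of heart and skeletal muscle. As a script translated them, the tail of Abcc9-203 shares 31 of 42 residues with the related receptor Abcc8 and that of Abcc9-206 shares 14, and SUR2B is the form whose tail resembles Abcc8. Both ends are shown because they are the stretches that tell the receptor types apart, with the alternative tails in capitals (Abcc9-203 at chr6:142590369-142590503 and Abcc9-206 at chr6:142594008-142594142, minus strand, GRCm38).
Abcc9-203: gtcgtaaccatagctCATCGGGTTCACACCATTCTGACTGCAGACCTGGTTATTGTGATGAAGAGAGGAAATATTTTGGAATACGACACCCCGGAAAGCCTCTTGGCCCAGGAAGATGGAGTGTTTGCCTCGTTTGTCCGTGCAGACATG
Abcc9-206: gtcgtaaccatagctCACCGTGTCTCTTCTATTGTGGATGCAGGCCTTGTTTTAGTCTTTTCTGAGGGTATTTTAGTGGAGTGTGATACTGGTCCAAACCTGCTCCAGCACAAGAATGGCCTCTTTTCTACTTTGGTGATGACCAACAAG

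The Abcc9-203 end, of the SUR2B type, led in both animals and both tables. Abcc9-206 held 18.7% of the pair in replicate 1 and 25.7% in replicate 2 in the first table, and 29.0% and 32.3% in the second. These shares rest on few reads, 205 and 165 counts of Abcc9-203 against 30.4 and 37.1 of Abcc9-206, and the transcripts also differ by an exon of 105 bases.

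The 5 contractile genes were low, 4 were detected, and 4 had counts large enough for a ratio. Mylk, myosin light chain kinase, was at 7.33 TPM in replicate 1 and 7.94 in replicate 2. Acta2, smooth muscle actin, was at 5.83 and 4.04 TPM. Tagln, the actin-binding protein transgelin, was at 3.14 and 3.68 TPM. Myh11, the smooth muscle myosin heavy chain and the most specific of these markers, was at 1.92 and 1.61 TPM.

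Acta2 and Myh11 were both lower in replicate 2. Acta2 had 201 and 119 counts, a log2 ratio of -0.49 (-0.84 to -0.16), and Myh11 had 245 and 160 counts, a log2 ratio of -0.35 (-0.65 to -0.06). Tagln, at 0.04 (-0.48 to 0.55), and Mylk, at 0.00 (-0.17 to 0.17), were not distinguishable from a ratio of 1. Des, the filament protein desmin, was at 0.29 and 0.82 TPM from 18 and 30 counts, with a log2 ratio of 0.92 (0.11 to 1.93), the opposite direction to Acta2 and Myh11. The median log2 ratio was -0.18 over the 4 genes with enough counts and became 0.00 once Des was admitted with a count minimum of 10. Of the 4 genes only Acta2 and Myh11 were resolved from a ratio of 1, both lower, while Des fell under the count minimum. Under spike-in scaling the log2 ratios were -0.73 for Acta2, -0.59 for Myh11, -0.24 for Mylk and -0.20 for Tagln, against 0.69 for Des.

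Myh11 (chromosome 16, 14194535 to 14291372, minus strand) has a form with a short insert near the nucleotide pocket of the motor, known as SM-B and typical of small resistance vessels. The insert of Myh11-204 is 21 bases, or 7 codons, that Myh11-201 lacks. It is shown in capitals between its flanking coding bases (chr16:14248580-14248600, minus strand, GRCm38), since it is what separates these myosins.
Myh11-204: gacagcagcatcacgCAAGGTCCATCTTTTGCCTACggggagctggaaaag

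The inserted form, Myh11-204, held 38.2% of the pair in replicate 1 and 43.0% in replicate 2, and 42.1% and 36.1% in the second table. The order of the animals differed between the tables, so the shares of the animals were not resolved. In counts the pair had 90.5 and 64.9 for Myh11-204 and 150 and 87.7 for Myh11-201.

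The products of Mylk include a long kinase and telokin, a short protein from an internal promoter that is known from smooth muscle. Mylk-203, with 3 exons and 159 codons, starts within the gene at position 34994807 of chromosome 16, and has this telokin layout. It held 57.4% of its pair with the kinase transcript Mylk-201 in replicate 1 and 61.0% in replicate 2, and 60.7% and 66.9% in the second table. Because TPM corrects for length, this lead came from 130 and 122 counts of the short transcript of 1620 bases, against 490 and 398 counts of the long one of 7824 bases.

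**Figure D3:**
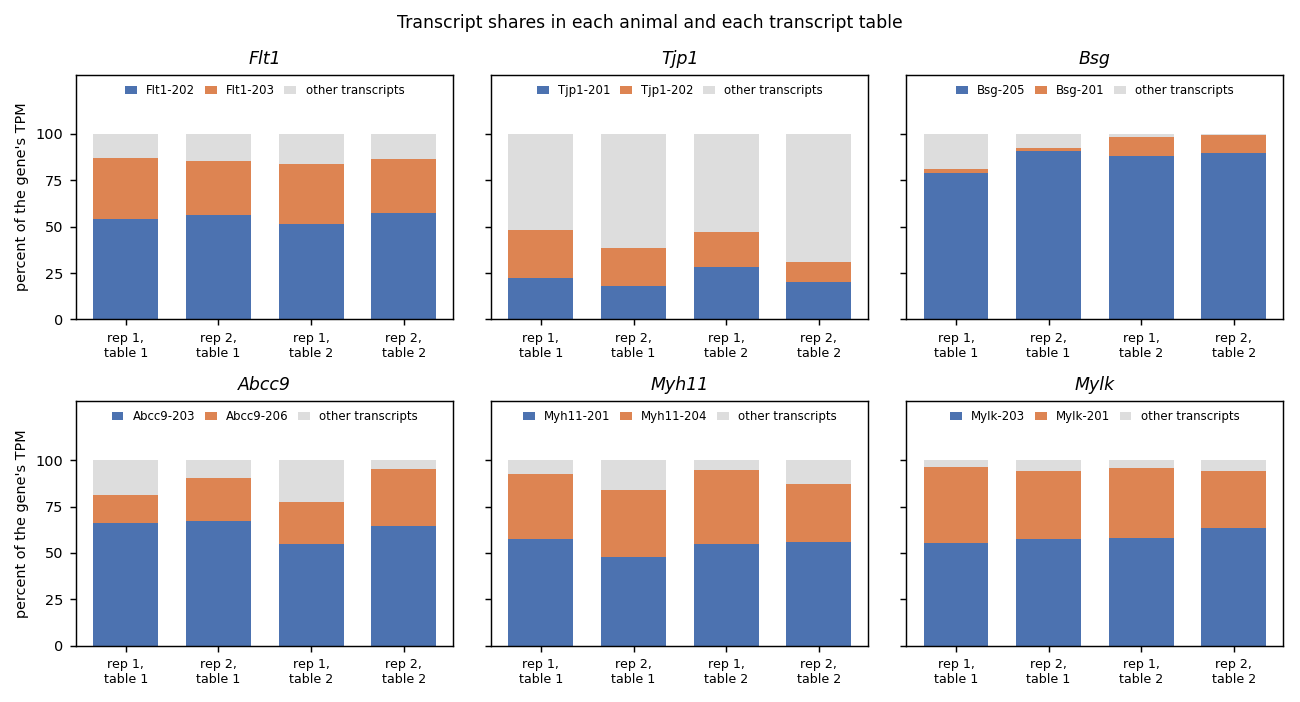
Percent of the TPM of Flt1, Tjp1, Bsg, Abcc9, Myh11 and Mylk held by the compared transcripts (blue and orange) and by all other annotated transcripts (grey), in each animal and each of the 2 transcript tables. Flt1, Mylk and Myh11 keep similar shares across the bars, while Tjp1 has most of its TPM in other, mostly short, transcripts.

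Across the list, 199 annotated transcripts were measured, and Itm2a and Cldn5 have a single one. Of the 36 detected genes with more than 1 transcript, the transcript of highest TPM was the same in both animals for 29 in the first table and 31 in the second. It was the same in all 4 values for 24 genes. The other 12, in which the leading transcript cannot be named from these tables, were Pecam1, Cdh5, Ly6c1, Ly6a, Egfl7, Sox17, Ocln, Tjp1, Higd1b, Anpep, Atp13a5 and Acta2. In Ocln, for example, the first table placed 58.0% of TPM on Ocln-205 in replicate 1 and 76.8% on Ocln-201 in replicate 2, and both encode 521 residues. Pecam1-202 led in the first table at 43.1% and 55.7%, and Pecam1-204 in the second at 35.7% and 36.5%. Eng-201 led in both at 60.3% or more, and Slc7a5-201 at 89.8% or more.

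A second transcript held at least 10% in both animals and both tables for 13 genes. Besides Flt1, Ptprb, Tjp1 (with the fragment Tjp1-205), Abcc9, Myh11 and Mylk, these were Vwf, Sox17, Tek, Slco1a4, Vtn, Higd1b and Acta2. For Vtn the second was Vtn-204, annotated as an intron-retaining transcript, at 30.3% and 17.98% in the first table. For Vwf it was Vwf-209, a processed transcript of 456 bases at 31.3% and 30.3%. For Tek it was Tek-201, which encodes 1122 residues against 1123 in Tek-203, at 13.6% and 14.7%. For Slco1a4 it was Slco1a4-202, a fragment of 622 bases at 35.3% and 36.1%. Acta2-202, of 826 bases, held 24.9% and 21.8% in the first table and 52.2% and 53.5% in the second. For Sox17 it was Sox17-208 and for Higd1b Higd1b-201. Several of these second transcripts are short or non-coding, so a share of TPM is not a share of protein.

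The choice between TPM and counts changed the direction for 5 of the 40 genes, Esam, Tjp1, Abcg2, Abcc9 and Anpep. How often the direction changed among all annotated genes was not counted, so these 5 have no background share beside them. For Esam the counts were 317 and 241, a log2 ratio of -0.14, while the log2 ratio of TPM was 0.15. The scales differed by at least 0.3 log2 units for Abcg2, Higd1b and Des. Of these only Abcg2 is among the 37 genes with a mean count of at least 50, that is 1 of 37 beside 6.10% of 14427 annotated genes with that count. The count intervals of Esam, Abcg2, Abcc9 and Anpep included a ratio of 1, and Tjp1 was the only gene of the 5 whose interval did not.

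**Figure D4:**
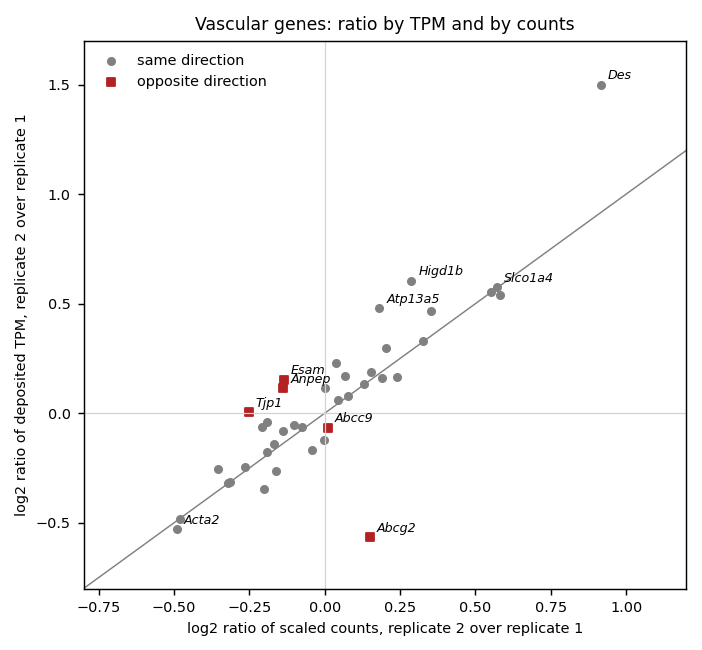
Log2 ratio of deposited TPM against log2 ratio of scaled counts, replicate 2 over replicate 1, for each of the 40 genes, with the line of equality. Red squares are the 5 genes whose ratios have opposite signs, and Abcg2 lies farthest below the line.

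Exons of 10 of the 40 genes overlap those of another gene on the opposite strand: Abcb1a, Abcc9, Des, Egfl7, Eng, Mylk, Nos3, Notch3, Sox17 and Tagln. No source used here states whether counting used strand. The partner with the most counts beside its member was Pcsk7, which overlaps Tagln and had 671 counts in replicate 1 and 598 in replicate 2, against 71 and 61 for Tagln. Atg9b, opposite Nos3, had 99 and 76 counts, and Fpgs, opposite Eng, 136 and 133. The remaining partners had at most 48 counts in either library. The posterior SD of read assignment was 0 in both libraries for Abcc9, Des, Eng, Mylk, Nos3, Notch3, Sox17 and Tagln. It was above 0 for Abcb1a and Egfl7. How reads in the overlapping exons were assigned is not stated, and their part in the levels was not tested.

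The ligands and co-receptors of these receptors number 20, and 16 were detected. Vegfa, the main ligand of Kdr and Flt1, was at 50.6 TPM in replicate 1 and 39.5 in replicate 2, or 2.73 and 2.40 times the level of Flt1. Vegfb, a ligand of Flt1 and not of Kdr, was at 42.3 and 40.5 TPM and was not resolved from Vegfa. The co-receptors Nrp1, at 50.9 and 42.9 TPM, and Nrp2, at 29.6 and 30.01 TPM, were also above both VEGF receptors. Pgf, placental growth factor, was at 2.95 and 2.08 TPM, Vegfc at 1.69 and 1.49 TPM and Vegfd at 1.46 and 2.45 TPM, all below Flt1 in both animals. The angiopoietins were scarce, with the Tek agonist Angpt1 at 1.29 and 1.32 TPM and its context-dependent antagonist Angpt2 at 0.77 and 0.63 TPM.

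**Figure D5:**
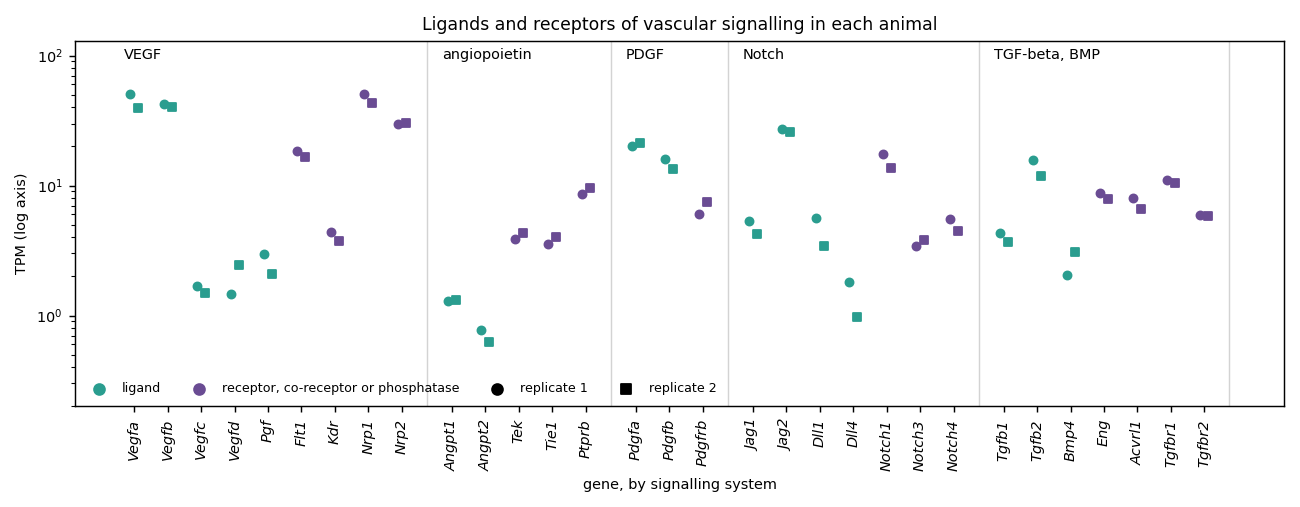
TPM (log axis) of ligands (green) and of receptors, co-receptors and the phosphatase Ptprb (purple) in replicate 1 (circles) and replicate 2 (squares), by signalling system. Vegfa and Vegfb lie above Flt1 and Kdr, whereas Angpt1 and Angpt2 lie below Tek and Tie1.

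Pdgfb, the ligand of Pdgfrb, was at 16.1 TPM in replicate 1 and 13.4 in replicate 2, 2.69 and 1.78 times the level of its receptor, and Pdgfa was at 20 and 21.4 TPM. Of the Notch ligands, Jag2 led at 27.3 and 25.7 TPM, with Jag1 at 5.36 and 4.27, Dll1 at 5.66 and 3.45 and Dll4, the ligand of arterial and tip endothelial cells, at 1.81 and 0.98 TPM. Of the TGF-beta and BMP ligands, Tgfb2 was at 15.7 and 11.9 TPM, Tgfb1 at 4.29 and 3.69 and Bmp4 at 2.05 and 3.06. The counts of Bmp4 went the other way, 60 and 31 with a log2 ratio of -0.66 (-1.37 to -0.05), as did its second-table TPM of 1.80 and 1.27. Gdf2 and Bmp10, the circulating ligands of Eng and its kinase partner, had 0 counts in both libraries.

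Of the 16 ligand and co-receptor genes with a mean count of at least 50, 2 had intervals above a ratio of 1 and 7 below, with a median log2 ratio of -0.16. The lower genes included Dll1, with 341 and 155 counts and a log2 ratio of -0.87, and Dll4, with 139 and 63 counts and -0.86. Vegfd, at 0.69, and Jag2, at 0.14, were the higher ones by scaled counts. The TPM of Jag2 in the gene table went the other way, at 27.3 and 25.7, whereas the second transcript table gave 28.7 and 32.9. No gene of this list reached the 2-fold criterion.

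Receptors and targets of Notch and TGF-beta signalling were all detected, 14 of 14, with 3 intervals above 1, 7 below and a median log2 ratio of -0.18. The highest were the Notch target Hey1, at 22.6 and 26.5 TPM, and the BMP target Id3, at 22.3 and 15.6 TPM, and the lowest was the Notch target Heyl, at 1.59 and 2.91 TPM. Notch1 was 5.16 and 3.59 times as high as the mural Notch3. Wnt and Norrin signalling, which induces the barrier, had 15 of 16 genes detected, 2 intervals above 1, 6 below and a median of -0.09. Ctnnb1, beta-catenin, at 266 and 249 TPM, and the ligand Wnt7b, at 25.4 and 22.5 TPM, were highest there, and the endothelial transcription factor Foxq1, at 1.16 and 0.87 TPM, was lowest.

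Among 13 other junction genes 9 were detected, with 2 intervals above 1 and 3 below among the 10 counted. Afdn, the junction scaffold afadin, at 57.3 and 50.1 TPM, and Ctnna1, alpha-catenin, at 21.7 and 20.5 TPM, were highest, and Tjp3, at 0.36 and 0.44 TPM, lowest. Cldn5 exceeded Cldn12 by 1.37 times in replicate 1 and was 0.97 times its level in replicate 2, but in the second transcript table it was 0.74 and 0.67 times that level.

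Of 14 other barrier transporters 13 were detected, with 3 intervals above 1 and 3 below. Slc3a2, the heavy chain that pairs with Slc7a5, led at 76.3 and 72.04 TPM, 3.03 and 2.32 times the level of Slc7a5, or 5.28 and 4.38 times in the second transcript table. The glucose transporter gene Slc2a1 followed at 45.7 and 40.1 TPM, and the thiamine transporter gene Slc19a3 was lowest at 0.78 and 0.55 TPM. Slc38a5, a glutamine transporter gene, met the 2-fold criterion, with 43 counts in replicate 1 and 88 in replicate 2 and a log2 ratio of 1.25. Its levels differed less, at 1.93 and 2.83 TPM, and at 2.36 and 2.42 TPM in the second transcript table. Slc38a5 was the only gene of the pathway lists to meet the 2-fold criterion.

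Caveolae and fenestration genes were detected in 5 of 5 cases, led by Cav2, at 9.38 and 11.9 TPM, and Cav1, at 9.97 and 8.26 TPM. Plvap, the diaphragm protein of leaky vessels, was lowest at 2.99 and 4.00 TPM. All 12 basement membrane genes were detected, with 6 intervals above 1, 2 below and a median of 0.11. Agrn, at 70.5 and 75.7 TPM, and Col4a2, at 21.4 and 23.8 TPM, led them, and Nid2, at 2.51 and 1.38 TPM, was lowest, although its counts of 105 and 116 gave a log2 ratio of 0.40 in the opposite direction. The arterial list had 4 of 7 genes detected, led by Efnb2 at 20.1 and 16.1 TPM and Alpl at 4.52 and 4.38 TPM, with Gja5 lowest at 0.19 and 0.47 TPM. The venous list had 5 of 7, led by Ackr1 at 32.4 and 36.5 TPM and Nr2f2 at 20.7 and 18.9 TPM, while Selp had 2 and 0 counts. The expected counts of Ackr1, 719.58 and 677.37, were not whole numbers, so some of its reads were divided among matching genes. Bulk levels do not show which cells expressed the arterial and venous genes, so they are not levels of those vessel types. Further contractile genes were detected in 7 of 12 cases. The broadly expressed Myl6, at 255 and 267 TPM, and Tpm1, at 86.7 and 88.2 TPM, led that list, and the smooth muscle gene Actg2 had 2 and 0 counts.

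Markers of other cells of the brain surface differed between the libraries. Choroid plexus epithelium, the secretory tissue of the ventricles, was the clearest, with a summed level of 29.7 TPM in replicate 1 and 644 in replicate 2 over 8 markers. Most of both sums was Ttr alone, at 21.75 and 615 TPM. All 8 markers were higher in replicate 2, and 6 of them were past the 2-fold criterion (Ttr, Aqp1, Kcnj13, Clic6, Kl and Slc4a5). Folr1, with 9 and 46 counts, and Otx2, with 11 and 63, also differed more than 2-fold but fell under the count minimum. Fibroblast markers went the other way, at 96.7 and 75.5 TPM, with 6 of 8 intervals below 1, a median log2 ratio of -0.64 and Ogn past 2-fold at -1.26. Perivascular macrophage markers summed to 6.53 and 3.29 TPM, with 3 of 3 intervals below 1 and F13a1 past 2-fold at -1.20. Red blood cell markers, a sign of blood left in the vessels, were similar at 346 and 334 TPM. Microglia markers summed to 131 and 138 TPM, astrocyte markers to 1190 and 1232, oligodendrocyte markers to 1297 and 1354 and neuron markers to 2396 and 2432 TPM. The oligodendrocyte sum hid a difference, with 4 intervals above 1, 1 below and a median log2 ratio of 0.42. Mbp, at 753 and 720 TPM, made up much of that sum. Medians were 0.06 for microglia, -0.06 for astrocyte and 0.01 for neuron markers. The defining markers of the choroid plexus and of fibroblasts were above 0 in both libraries, and their part in the differences of Itm2a, Emcn, Slco1a4, Nos3, Cldn5, Mfsd2a, Acta2, Myh11 and the other vascular genes was not tested.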

How the data were processed

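Total RNA of 2 hippocampal samples was sequenced after a directional library preparation from 300 ng of RNA with reduced ribosomal RNA, per the labels' protocols. Alignment was to mm10 with GENCODE M21, as the accompanying notes state. No source used here names the aligner, tool versions or use of strand. Expected counts, which divide reads among matching genes, were deposited unnormalised in a gene table and a first transcript table of RSEM layout, per the file headers. TPM, scaled for length and library by the authors, was deposited beside them, as was FPKM, used here as an alternative. A posterior SD per count, a signal in units of counts, was deposited too. A second transcript table of kallisto layout holds deposited estimated counts and TPM.

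Expected counts on annotated genes totalled 34147402 and 28356913, and spike-ins, left out of library sizes, 60864 and 60209. Counts were rounded, scaled by TMM in edgeR 4.0.16 (R 4.3.3) and turned into ratios with a prior count of 2. A gene met the 2-fold criterion when its ratio reached 2 in either direction, its counts averaged 50 or more and its 95% interval (exact, Clopper-Pearson) left out 1. Intervals cover counting error only, since they were computed from the counts of 1 library per animal. No molecular identifiers are named. A quasi-likelihood test was not possible with 1 library per animal, and p-values were not computed. The ratio script was tested on simulated data. Alternatives were DESeq2 1.42.0 size factors, spike-in and total-count scaling, other count minimums and prior counts, the second transcript table, FPKM, TPM over nuclear protein-coding genes, other detection thresholds and single animals.

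Sequences and coordinates come from GENCODE M21 transcripts on GRCm38, the C57BL/6J reference, while the animals also carry CAST/EiJ alleles. Named genes were all 40 members, all ligands and co-receptors, and of each other list the 2 highest and the lowest by mean TPM and any past the 2-fold criterion. Lists of other cell types are given by their sums, counts and genes past that criterion only. Dll1, Dll4, Atg9b, Fpgs, Pcsk7, the compared transcripts and gene pairs beyond this rule were chosen after their values were seen. The members and lists were chosen with earlier results of these data known.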

Additional observations from a re-analysis of the deposited data

How the results depend on the processing

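The count of vascular genes differing at least 2-fold was 0 under each of the scalings, count minimums, prior counts and the second transcript table tried. With a 1.5-fold criterion it was also 0 with the main scaling. Chosen after seeing the data, that criterion with other settings gave 3 genes under spike-in scaling (Nos3, Acta2 and Myh11), 1 under total-count scaling and 1 with a prior count of 0.5 (Emcn in both), and 0 with DESeq2 size factors or the second transcript table. The 38 detected genes became 36 at a TPM of at least 2 and 39 at a TPM of at least 0.5. The summed endothelial level of 650 TPM was 594 in the second transcript table, 1303 with TPM rescaled to nuclear protein-coding genes and 402 as FPKM. The summed mural level of 105.21 TPM was 93, 211 and 65.0 under these settings. Without Bsg, Tjp1 and Slc7a5, left out after seeing the data, the endothelial sum was 276 TPM. Taking either animal alone gave 638.65 to 662.08 TPM for endothelium and 105 to 105.41 TPM for mural genes. Spike-in scaling moved the median log2 ratio to -0.30 for endothelial and -0.23 for mural genes, as it moved all genes tested. The cause of these shifts was not tested beyond the change of unit or scaling. Of the isoform shares, the second transcript table moved the mean share of Tjp1-202 from 53.6% to 37.5%, of Abcc9-206 from 22.2% to 30.6%, of Mylk-203 from 59.2% to 63.8% and of Bsg-201 from 2.39% to 10.2%, and the cause was not tested. No paired analysis was possible because the samples form 1 group. Depth limits the ratios of Kcnj8, Higd1b and Des, which had mean counts under 50.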
